A study of Rattus norvegicus with 24 samples.

Results

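The genes described here are the matrix metalloproteinases Mmp2, Mmp9, Mmp12, Mmp14, Mmp16 and Mmp17 and the 4 tissue inhibitors of metalloproteinases Timp1, Timp2, Timp3 and Timp4. They were chosen by name, as the loci of the deposited count table whose gene name equals a member's symbol, and make up 10 of the 42334 loci, of which 26641 carry a gene name. Mmp2 is listed at 3 loci, and the locus with the highest mean stood for it. Messenger RNA was sequenced from 24 libraries, 1 for each of 2 brain regions of 12 rats. All rats were adult male Sprague-Dawley rats studied 3 months after the operation. The 6 TBI rats had a lateral fluid-percussion injury, in which a fluid pulse strikes the exposed dura on 1 side of the brain. The 6 sham-operated controls had the anaesthesia and the opening of the skull without the impact. The TBI rats had been picked by magnetic resonance imaging for a bright rim around the cortical lesion, so they stand for animals with lasting perilesional inflammation and not for all injured rats. From each rat the perilesional cortex, which borders the lesion, and the thalamus of the injured side were dissected, so the groups were TBI cortex, sham cortex, TBI thalamus and sham thalamus with 6 rats each.

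Matrix metalloproteinases are zinc-dependent enzymes that cut proteins of the extracellular matrix, basement membranes, cell surface receptors and growth factor carriers. Most are made as inactive precursors and are switched on by removal of a propeptide, in part by plasmin and by the membrane-bound family members. Tissue inhibitors of metalloproteinases bind the active site of these enzymes and block it, and TIMP-2 also helps the membrane-bound MMP-14 to activate pro-MMP-2. In the brain this system is known for its part in opening of the blood-brain barrier after injury, in remodelling of vessels and perineuronal nets, and in glial scar formation.

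The upstream sequences of 5 of the 10 genes (Mmp12, Timp1, Timp2, Timp3 and Timp4) were matched by symbol in the RefSeq promoter set of build GRCr8. The 250 bases before the annotated start are shown for Timp1 and Mmp12, the genes with the highest ratio of TBI to sham means in the thalamus and in the cortex respectively, and for Timp4, which was lower in TBI in both regions. They lie on chrX:3771123-3771372 (minus strand) for Timp1, chr8:12866402-12866651 (plus strand) for Mmp12 and chr4:149985205-149985454 (minus strand) for Timp4. Capitals mark matches on either strand to 4 motifs: the AP-1 element TGAGTCA, its variant TGAGTAA, the GC box GGGCGG and the TATA element TATAAA. The motifs were picked after the sequences had been read, and no match overlapped another.
Timp1: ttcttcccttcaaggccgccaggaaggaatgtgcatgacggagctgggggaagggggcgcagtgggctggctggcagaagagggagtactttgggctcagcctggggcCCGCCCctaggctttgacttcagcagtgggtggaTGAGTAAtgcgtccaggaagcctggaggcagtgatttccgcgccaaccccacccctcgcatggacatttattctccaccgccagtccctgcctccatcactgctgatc
Mmp12: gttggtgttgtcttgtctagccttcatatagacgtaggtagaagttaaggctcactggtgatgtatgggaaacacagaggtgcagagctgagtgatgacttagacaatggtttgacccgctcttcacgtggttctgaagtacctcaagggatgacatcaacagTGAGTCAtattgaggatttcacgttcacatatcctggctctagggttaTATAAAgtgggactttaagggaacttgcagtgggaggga
Timp4: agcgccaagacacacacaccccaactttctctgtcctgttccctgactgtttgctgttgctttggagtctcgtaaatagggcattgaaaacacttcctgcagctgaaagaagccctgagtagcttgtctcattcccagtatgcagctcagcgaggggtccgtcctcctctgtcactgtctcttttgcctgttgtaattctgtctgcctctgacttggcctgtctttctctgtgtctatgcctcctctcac
Counted back from the start site, so that -1 is the last base shown, TGAGTCA lay at -87 to -81 and TATAAA at -39 to -34 in Mmp12, and TGAGTAA lay at -108 to -102 and a GC box on the other strand at -142 to -137 in Timp1. The Timp4 window held none of these letters. Of the 33469 promoters in the set, 4.05% held TGAGTCA or its reverse complement, 2.38% TGAGTAA, 30.5% GGGCGG and 12.9% TATAAA in the same window. These matches describe the letters only.

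The libraries held between 30568927 and 54608922 fragments. Values are normalized counts, which are fragment counts divided by a factor for each library, and they are not corrected for gene length, so levels are compared between libraries and not between genes. Positions of the loci are those listed in the table, on build Rnor_5.0 per the submitters' processing notes. Of 8 identity genes of each region, all 8 cortical genes were lower and all 8 thalamic genes higher in the sham thalamus than in the sham cortex, and the summed levels of both sets separated all cortex from all thalamus libraries. Some libraries stood apart by 8 markers of the choroid plexus, the secretory tissue of the ventricles. Their summed level was 264618 in the thalamus of TBI rat 45, and 108798 and 68739 in the thalamus of sham rats 50 and 34, against 610 to 1822 in the other 9 thalamus libraries. In the cortex it was 33173 in TBI rat 45, and 24026 and 11502 in sham rats 26 and 34, against 937 to 3040 in the other 9. A set of 9 markers of fibroblasts and meninges summed to 52029 in the thalamus of TBI rat 45 and to 7509 and 11290 in that of sham rats 50 and 34, against 2198 to 3512 in the other thalamus libraries. Results that rest on these libraries are given with and without them. That choice was made after the data had been seen.

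**Figure D1:**
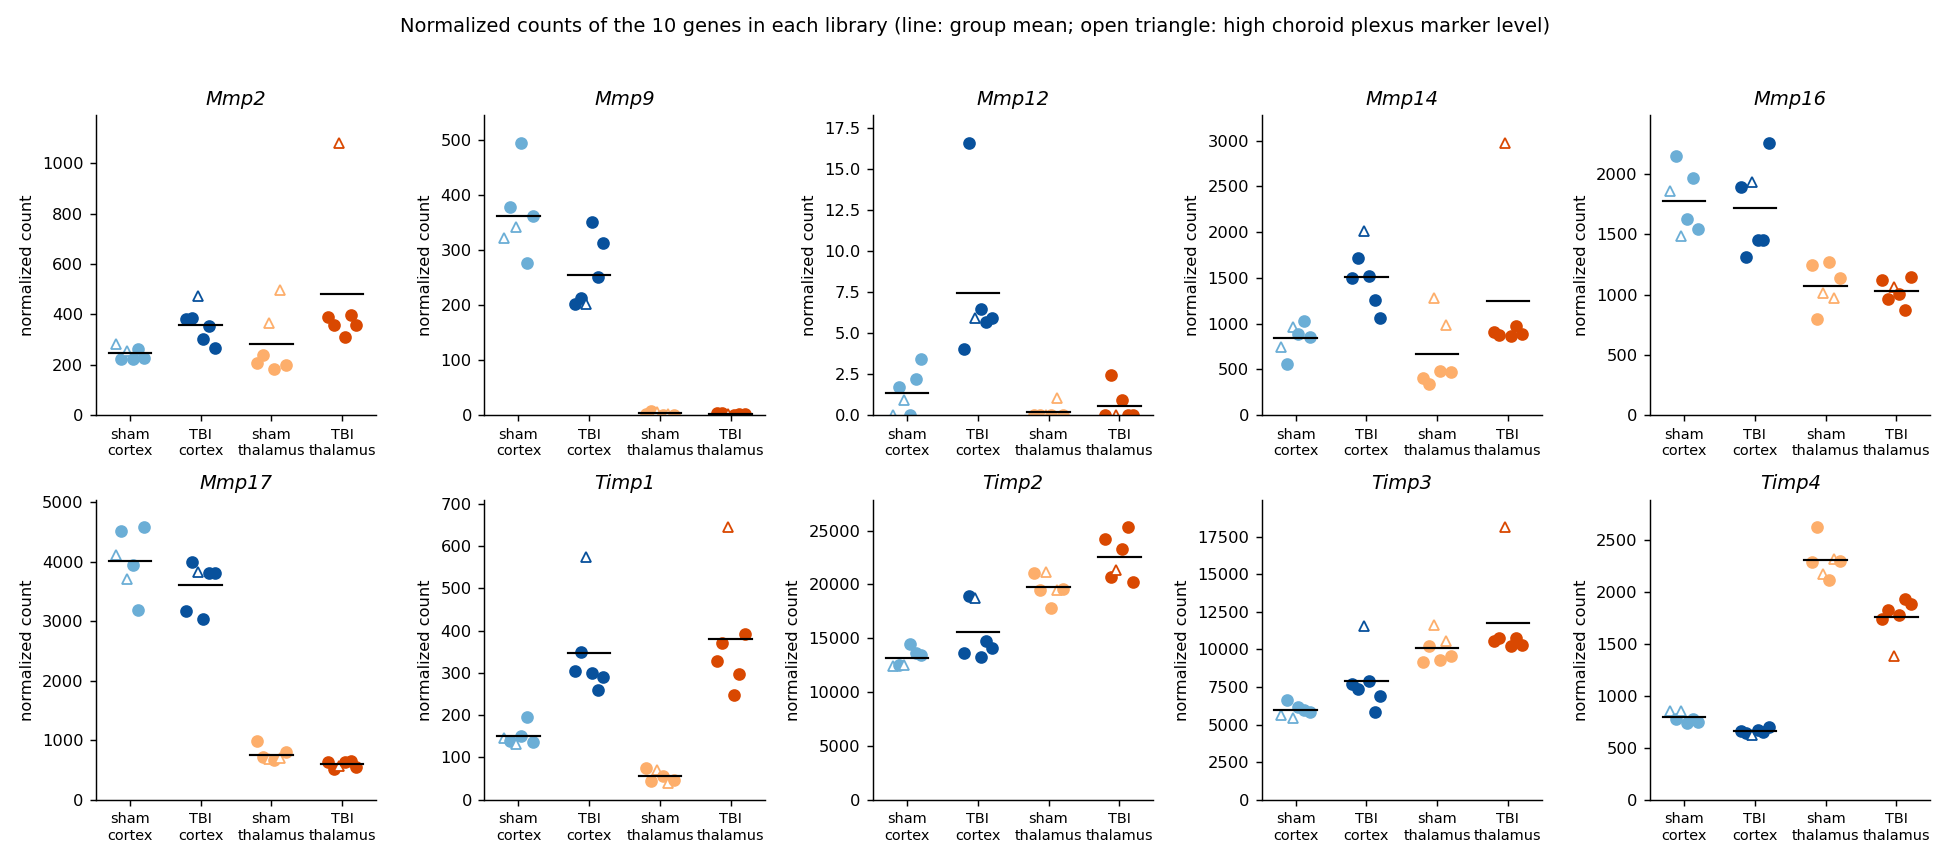
Normalized counts (y axes, linear from 0) of the 10 genes in the 6 libraries of each of the 4 groups (x axes), with the group mean as a line and the 3 libraries of highest choroid plexus marker level in each region as open triangles. The TBI and sham points of Timp1 do not overlap in either region, and a single open triangle, TBI rat 45, lies far above the other TBI thalamus libraries for Mmp2, Mmp14 and Timp3.

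The first question was whether the genes differed between TBI and sham-operated rats in the perilesional cortex. Loci with a mean of at least 10 were tested by limma on log2(normalized count + 1), and a gene was called at a Benjamini-Hochberg adjusted p under 0.05 over all 15493 loci tested. Of the 10 genes, 9 passed the filter. In TBI cortex 4 rose (Mmp2, Mmp14, Timp1 and Timp3) and 2 fell (Mmp9 and Timp4), where 14.3% of all tested loci were called higher and 14.9% lower, 29.2% in either direction. The median log2 fold change of the 9 genes was 0.23, beside -0.01 over all loci. In the thalamus 8 genes passed the filter, 2 rose (Timp1 and Timp2) and 2 fell (Mmp17 and Timp4), where 14.5% of the 15564 tested loci were called higher and 20.9% lower, 35.4% in either direction. Under upper quartile scaling the share of lower calls among all called thalamus loci was 48.0% in place of 59.0%, and the direction of the 4 called genes was as before. The median of the 8 genes was 0.19, beside -0.02 over all thalamus loci. In whole tissue, a change in the number of cells that make an RNA and a change in the RNA made per cell cannot be told apart.

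**Figure D2:**
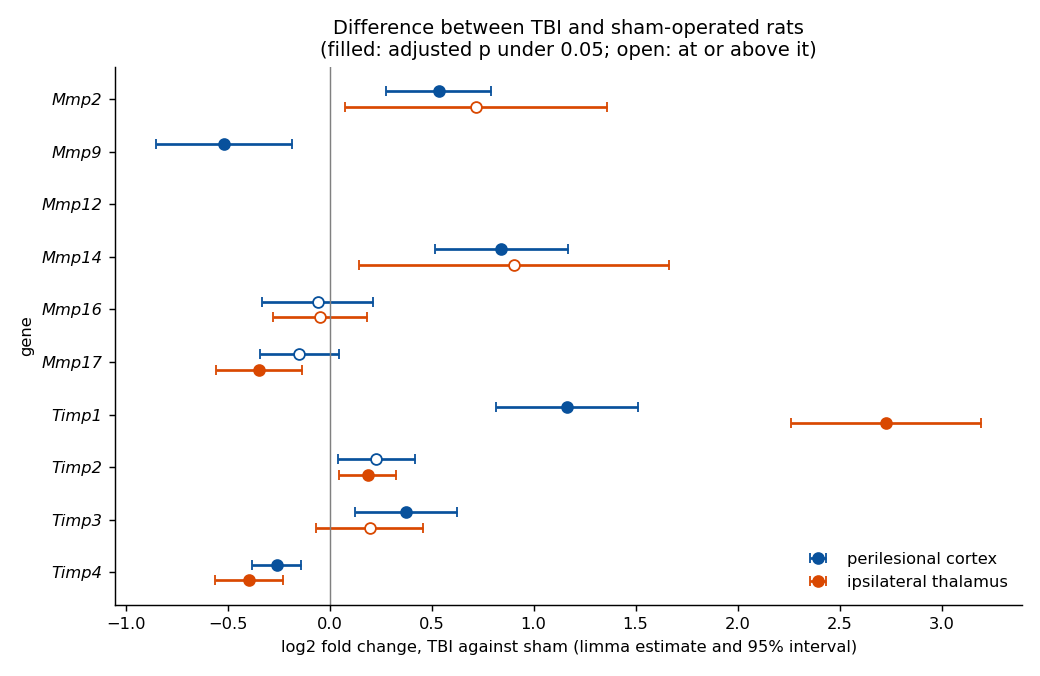
Difference between TBI and sham-operated rats as log2 fold change (x axis) for each gene (y axis), with the 95% interval of the limma estimate, in perilesional cortex (blue) and ipsilateral thalamus (orange); filled points had an adjusted p under 0.05. Timp1 lies farthest to the right in both regions, at 1.16 in cortex and 2.73 in thalamus, and no point is drawn for Mmp12 or for Mmp9 in thalamus, which lay under the filter.

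Mmp2 (locus XLOC_019373, chr19:26629182-26658966) encodes gelatinase A, an enzyme for denatured collagen and type IV collagen of basement membranes. In the sham cortex its normalized count ranged from 221 to 283 with a median of 241, and in the TBI cortex from 268 to 472 with a median of 367. Of the TBI libraries 5 lay above every sham library. The means were 245 ± 25.8 and 360.0 ± 71.7 (SD, n = 6 each), the log2 fold change was 0.53 (SE 0.12) and the limma adjusted p was 0.00446. In the fit of all 24 libraries it was 0.107. In the thalamus the sham libraries ranged from 185 to 498 (median 223) and the TBI libraries from 309.9 to 1082 (median 374). The ranges overlapped because sham rats 50 and 34, with 498 and 364, lay among the TBI libraries, and TBI rat 45 lay highest of all. The log2 fold change was 0.72 (SE 0.30) and missed the threshold (limma adjusted p = 0.0788). Without the 3 thalamus libraries of high choroid plexus level the sham libraries held 185 to 239 and the TBI libraries 309.9 to 399, and the log2 fold change was 0.80 (limma adjusted p = 0.000214). With single rats left out the value rested on the choice of rat: without TBI rat 45 the log2 fold change was 0.45 (limma adjusted p = 0.131), and without sham rat 50 it was 0.90 and passed (0.0275). The 2 other Mmp2 loci, at the same interval on chromosome 19, had group means between 21.6 and 38.5, and the main locus held 75.3% to 95.9% of the gene's counts in a library. In the cortex these 2 loci did not rise, with ratios of TBI to sham means of 0.85 and 0.94, beside 1.47 at the main locus. In the thalamus the ratios were 1.01 and 1.23, beside 1.71.

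Mmp9 (XLOC_025491, chr3:167597816-167605882) encodes gelatinase B, which neurons, microglia and infiltrating leukocytes can release. It ranged from 276 to 495 (median 351) in the sham cortex and from 201 to 350.5 (median 232) in the TBI cortex. Of the TBI libraries 4 lay below every sham library, and 3 sham libraries lay above every TBI library. The mean fell from 362 ± 74.0 to 255 ± 63.1 (SD, n = 6 each), with a log2 fold change of -0.52 (SE 0.16, limma adjusted p = 0.0224). The call was lost without TBI rat 45 (0.0512), TBI rat 22 (0.0529) or sham rat 38 (0.0541), as limma adjusted p values. It was also lost without the 3 cortex libraries of high choroid plexus level (0.0914) and in the fit of all 24 libraries (0.36). In the thalamus Mmp9 was close to absent in these counts. Sham libraries held 0 to 7 fragments and TBI libraries 1 to 4, with 17 fragments in all in each group. The ratio of TBI to sham was 0.924 with an exact 95% interval for counting error of 0.443 to 1.92, so a difference was not detectable at this depth.

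Mmp12 (XLOC_036718, chr8:5610391-5620293), the macrophage elastase, had few fragments in every library. In the cortex the 6 sham libraries held 0 to 3 fragments and the 6 TBI libraries 5 to 20, with means of 1.38 and 7.46 normalized counts. Every TBI library lay above every sham library, and TBI rat 24 was the highest. In all there were 51 fragments in TBI and 8 in sham cortex, a ratio of 5.48 (exact 95% interval for counting error 2.58 to 13.4). The gene lay under the filter on low values, so it was tested alone, by an exact two-sided permutation test chosen after the data had been seen. The difference of mean log2 values was 1.91. As the groups did not overlap, the exact permutation p could only be 0.00216, the smallest that 6 against 6 libraries allow. It therefore adds nothing to the separation already seen, and it was not adjusted over loci. In the thalamus there were 3 fragments in TBI and 1 in sham libraries, and every library was at or under the floor of 3 fragments, so no difference could be detected there.

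Mmp14 (XLOC_013845, chr15:36960161-36970558) encodes the membrane-type enzyme that activates pro-MMP-2 on cell surfaces. Its normalized count ranged from 564 to 1033 (median 872) in the sham cortex and from 1067 to 2008 (median 1512) in the TBI cortex. The groups did not overlap. The mean rose from 842 ± 168 to 1513 ± 331 (SD, n = 6 each), a log2 fold change of 0.84 (SE 0.15, limma adjusted p = 0.0011), and the call held under all 24 alternatives. In the thalamus the sham libraries ranged from 346 to 1281 (median 481) and the TBI libraries from 869 to 2979 (median 898). Of the sham libraries 4 lay below every TBI library, while sham rats 34 (1281) and 50 (991) lay above 5 of the 6 TBI libraries. With an SE of 0.36 the log2 fold change of 0.90 missed the threshold (limma adjusted p = 0.0618). Without the 3 thalamus libraries of high choroid plexus level the sham libraries lay at 346 to 488 and the TBI libraries at 869 to 976. It was then 1.08 and the limma adjusted p 1.76e-05. Without TBI rat 45 alone the log2 fold change was 0.62 (limma adjusted p = 0.108). The gene passed without sham rat 34 alone (0.0174) or sham rat 50 alone (0.0413), as limma adjusted p values, and both Mmp2 and Mmp14 passed in the fit of all 24 libraries (0.0229 and 0.0178).

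**Figure D3:**
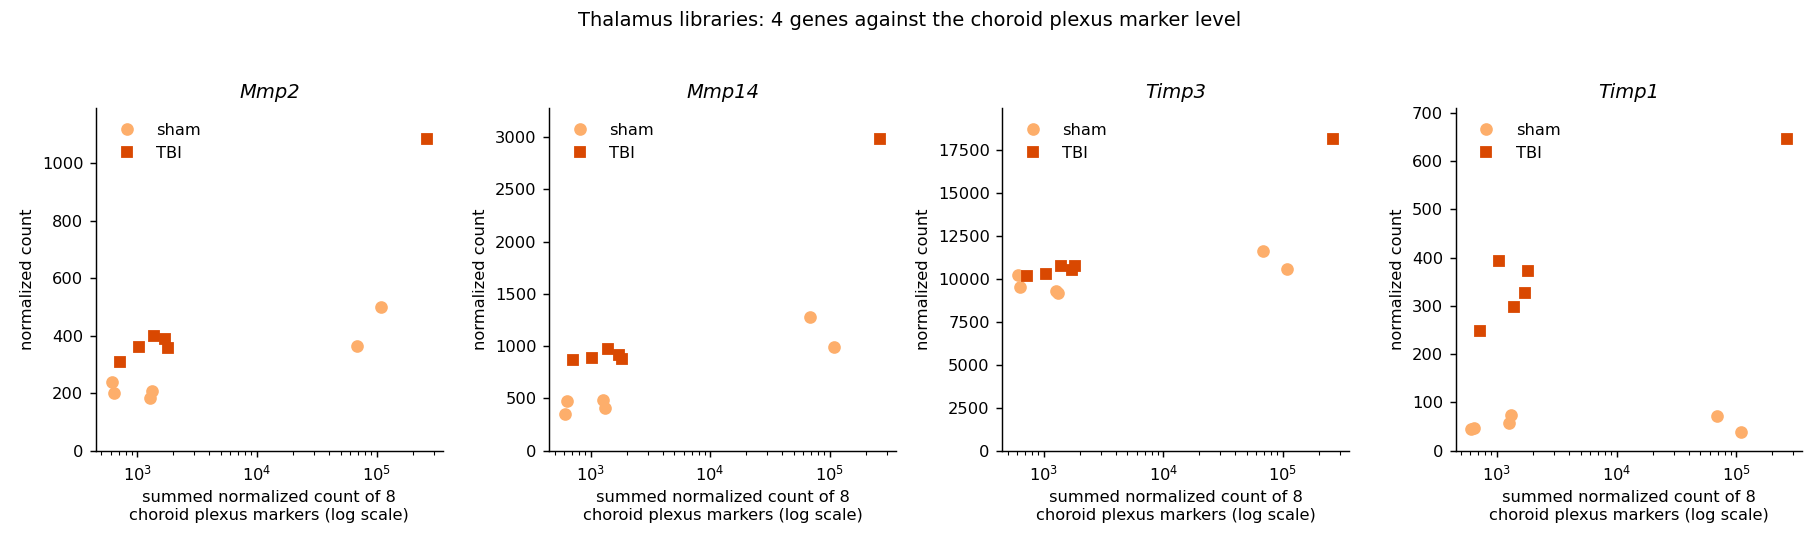
Normalized counts of Mmp2, Mmp14, Timp3 and Timp1 (y axes, linear from 0) against the summed normalized count of 8 choroid plexus markers (x axis, log scale) in the 6 sham and 6 TBI thalamus libraries. At the left of each panel, among the 9 libraries with a marker level of 610 to 1822, TBI lies above sham for Mmp2, Mmp14 and Timp1. At the right lie sham rats 34 and 50 and TBI rat 45, of which rat 45 has the highest count of each of the 4 genes.

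Mmp16 (XLOC_029857, chr5:36239379-36487582) and Mmp17 (XLOC_010558, chr12:32636906-32663693) are further membrane-type enzymes, MMP-16 with a transmembrane anchor and MMP-17 with a glycolipid anchor. Mmp16 ranged from 1485 to 2150.0 in the sham cortex and 1313 to 2259 in the TBI cortex, and from 795 to 1267 and 874 to 1149 in the thalamus. The groups overlapped in both regions. The differences did not pass the test, with log2 fold changes of -0.06 (95% interval -0.33 to 0.21, limma adjusted p = 0.763) in cortex and -0.05 (-0.28 to 0.18, 0.763) in thalamus. Mmp17 ranged from 667 to 983 (median 706) in the sham thalamus and from 512 to 654 (median 599.5) in the TBI thalamus, without overlap. Its mean fell from 758 ± 120 to 593 ± 58.4 (SD, n = 6 each), and the log2 fold change was -0.35 (SE 0.10, limma adjusted p = 0.013). In the cortex it ranged from 3181 to 4580.2 in sham and from 3032 to 4002 in TBI, and the log2 fold change of -0.15 did not pass (95% interval -0.34 to 0.05, limma adjusted p = 0.24). The deposited Mmp17 locus also carries a second gene identifier, so its counts may include another transcript.

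Timp1 (XLOC_041570, chrX:2136180-2206663), the inducible inhibitor of the family, had the largest fold change of the members tested across all loci, in both regions. In the sham cortex it ranged from 132 to 197 (median 143) and in the TBI cortex from 259 to 575 (median 302), and every TBI library lay above every sham library. The mean was 149.9 ± 23.7 in sham and 347 ± 116 in TBI (SD, n = 6 each), a ratio of 2.31, and the log2 fold change was 1.16 (SE 0.16, limma adjusted p = 0.000157). The thalamus showed a larger gap. Sham libraries ranged from 38.9 to 74.5 (median 51.8) and TBI libraries from 248 to 645 (median 349.7), with means of 55.5 ± 14.8 and 380.3 ± 139.7 (SD, n = 6 each), a ratio of 6.86. On the log2 scale this was 2.73 (SE 0.22, limma adjusted p = 8.12e-07). TBI rat 45 was the highest library in both regions, and without the 3 libraries of high choroid plexus level in each region the log2 fold change was 0.96 in cortex and 2.55 in thalamus. The sham thalamus libraries of high choroid plexus level, rats 50 and 34, held 38.9 and 71.4, and the other 4 sham thalamus libraries 44.6 to 74.5.

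Timp2 (XLOC_008323, chr10:106971658-107021465) and Timp3 (XLOC_035699, chr7:23286645-23964495) are the broadly expressed inhibitors, TIMP-3 being bound to the extracellular matrix. Timp2 ranged from 17784 to 21186 (median 19508) in the sham thalamus and from 20251 to 25316 (median 22290.5) in the TBI thalamus. Of the TBI libraries 4 lay above every sham library. The log2 fold change was 0.19 (SE 0.06, limma adjusted p = 0.0368). The call was lost in 7 of 12 fits that left out 1 rat (sham rats 32, 38, 50 and 55 and TBI rats 22, 52 and 56), in which the limma adjusted p was 0.057 to 0.0797. It was also lost in the fit of all 24 libraries (0.072), with no filter (0.0529) and without the 3 libraries of high choroid plexus level (0.0525). In the cortex Timp2 ranged from 12449 to 14427 in sham and from 13238 to 18961 in TBI, with a log2 fold change of 0.23 that did not pass (95% interval 0.04 to 0.42, limma adjusted p = 0.0643). It did pass in the fit of all 24 libraries (0.0376), under TMM scaling (0.0464), under upper quartile scaling (0.0472), and without TBI rat 22, 52 or 63 (0.0475, 0.0364 and 0.0456), as limma adjusted p values. Without the 3 cortex libraries of high choroid plexus level it was 0.13 (limma adjusted p = 0.378), and without TBI rat 45 alone 0.17 (0.140). Timp3 ranged from 5427 to 6619.9 (median 5919) in the sham cortex and from 5863 to 11538.5 (median 7532) in the TBI cortex, where TBI rat 45 was highest. The log2 fold change was 0.37 (SE 0.12, limma adjusted p = 0.0255), and the call was lost without sham rat 26 (0.0536) or 34 (0.0543). Without the 3 cortex libraries of high choroid plexus level it was 0.21 (limma adjusted p = 0.118). In the thalamus Timp3 ranged from 9183 to 11611 in sham and from 10206 to 18136 in TBI, and the log2 fold change of 0.20 did not pass (95% interval -0.07 to 0.46, limma adjusted p = 0.238). It was 0.06 without TBI rat 45 alone. Without the 3 thalamus libraries of high choroid plexus level the sham libraries held 9183 to 10236 and the TBI libraries 10206 to 10770. The difference did not pass there either (limma adjusted p = 0.072).

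Timp4 (XLOC_029292, chr4:210326020-210487076), the inhibitor with the most restricted expression among tissues and known in brain and heart, was the 1 inhibitor that fell. It ranged from 735 to 857 (median 779) in the sham cortex and from 625 to 704 (median 659) in the TBI cortex, without overlap. The mean fell from 793 ± 52.2 to 661 ± 26.4 (SD, n = 6 each), a log2 fold change of -0.26 (SE 0.06, limma adjusted p = 0.00364). In the sham thalamus it ranged from 2112 to 2625 (median 2295) and in the TBI thalamus from 1388 to 1931 (median 1802), again without overlap. The mean fell from 2305 ± 177 to 1757 ± 194 (SD, n = 6 each), with a log2 fold change of -0.40 (SE 0.08, limma adjusted p = 0.00125). TBI rat 45 was the lowest library in both regions. Without the libraries of high choroid plexus level the value was -0.35 in the thalamus (limma adjusted p = 0.0029) and -0.19 in the cortex, which missed the threshold (limma adjusted p = 0.0707).

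**Figure D4:**
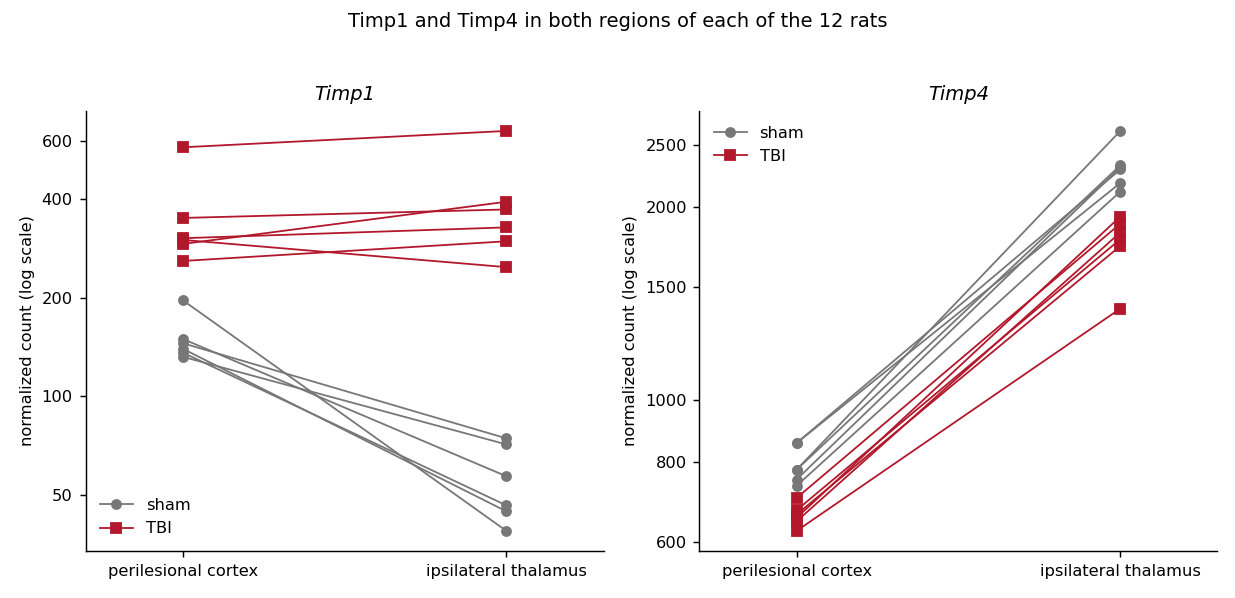
Normalized counts of Timp1 and Timp4 (y axes, log scale) in the cortex and thalamus of each of the 12 rats, with a line joining the libraries of a rat (grey circles sham, red squares TBI). Timp1 falls from cortex to thalamus in all 6 sham rats, from 132 to 197 down to 38.9 to 74.5, and lies between 248 and 645 in all TBI libraries, while Timp4 is higher in the thalamus of every rat and lower in TBI than in sham libraries of the same region.

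Timp1, Timp3 and Timp4 each lie inside a synapsin gene, a known arrangement in which the inhibitor is encoded within an intron on the opposite strand. The deposited positions of Timp1, Timp3 and Timp4 are intervals shared with Syn1, Syn3 and Syn2. The libraries kept strand, but the strand setting of the counting is not given in the sources used here, so reads of each pair may not have been told apart. The Timp1 interval is also that of Araf and RPL12, and the Timp4 interval that of a further gene identifier. Between TBI and sham libraries no synapsin passed the test in the direction of its inhibitor. In the thalamus the log2 fold change was -0.29 for Syn1 (limma adjusted p = 0.00395), 0.10 for Syn2 (0.386) and -0.34 for Syn3 (0.0813), and in the cortex all 3 lay between -0.11 and -0.07 and did not pass. Araf, a kinase gene, fell in the cortex by 0.15 on the log2 scale (limma adjusted p = 0.0141). Between regions in sham rats, however, Syn1 was lower in the thalamus by a log2 fold change of -1.06 (limma adjusted p = 7.56e-10), the direction that Timp1 took, while Syn2 (-0.27) and Syn3 (-1.74) took the opposite direction to Timp4 and Timp3. Timp2 shares its interval with Ddc8, which had group means between 1.40 and 5.54.

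The second question was whether the TBI effect differed between the regions. Over all 24 libraries 9 of the genes passed the filter, and 1, Timp1, was called, where 2.72% of 15678 loci were called higher in the thalamus, 4.54% lower and 7.26% in either direction. The log2 fold change of Timp1 was higher in the thalamus than in the cortex by 1.56 (SE 0.29, 95% interval 0.97 to 2.16, limma adjusted p = 0.00147). The TBI levels overlapped between regions (259 to 575 in cortex, 248 to 645 in thalamus), while the sham levels did not (132 to 197 and 38.9 to 74.5). Syn1, which shares the Timp1 interval, also had a lower sham mean in thalamus (13485) than in cortex (28161). Its own difference of the TBI effect was -0.21 (limma adjusted p = 0.205). The part of Syn1 reads in the Timp1 difference was not tested. For the other 8 genes the difference did not pass. Its 95% interval ran from -0.53 to 0.90 for Mmp2, -0.80 to 0.92 for Mmp14, -0.49 to 0.09 for Mmp17, -0.55 to 0.20 for Timp3 and -0.33 to 0.06 for Timp4. Mmp9 passed the filter through the cortex libraries alone, and its interval, from -0.38 to 1.96, rests on thalamus counts of at most 7 fragments.

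The third comparison set the thalamus of the sham-operated rats beside their cortex. In sham rats Timp2, Timp3 and Timp4 were called higher and Mmp16, Mmp17 and Timp1 lower in the thalamus than in the cortex. Of all 15582 loci 33.9% were called higher and 28.3% lower, 62.2% in either direction, so that a call was common among all loci too. Mmp9 passed the filter only through the cortex, where it was high, so its lower call is set aside and the gene is described by its counts. Its sham mean was 362 in cortex and 3.11 in thalamus, and the 2091 against 17 fragments gave a ratio of 121 (exact 95% interval for counting error 75.6 to 209), with 4 of 6 sham thalamus libraries at or under the floor of 3 fragments. Mmp17 was 5.29-fold higher in the sham cortex by the means, with a log2 fold change of -2.40 (SE 0.10, limma adjusted p = 1.18e-11). Mmp16 differed by -0.73 (SE 0.12, limma adjusted p = 4.88e-05) and Timp1 by -1.45 (SE 0.17, 1.54e-06), where Syn1 of the same interval was also lower. Timp4 was 2.91-fold higher in the thalamus, with a log2 fold change of 1.54 (SE 0.06, limma adjusted p = 4.41e-12). Timp3 was higher by 0.76 and Timp2 by 0.59 on the log2 scale (SE 0.06 and 0.05). Mmp2 and Mmp14 did not pass, at 0.11 (95% interval -0.33 to 0.54) and -0.49 (-1.08 to 0.10). With the rat as a replicate block Mmp14 did pass (limma adjusted p = 0.0225), as it did without sham rat 34 (0.028), and without the 4 sham libraries of high choroid plexus level its log2 fold change was -0.94 (0.000695).

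Ordered by their means, the 4 groups fell into different patterns for different genes. The means of Timp2, Timp3 and Timp4 were higher in both thalamus groups than in both cortex groups. The regions did not overlap for Timp4, whereas the TBI cortex reached 18961 for Timp2 and 11538.5 for Timp3, above the lowest sham thalamus values of 17784 and 9183. Timp1 was highest in TBI thalamus, followed by TBI cortex, sham cortex and sham thalamus, and only the first 2 of these overlapped. Mmp9, Mmp16 and Mmp17 were higher in both cortex groups than in both thalamus groups, and the lowest cortex value (201, 1313 and 3032) lay above the highest thalamus value (7.43, 1267 and 983) for each. Mmp14 was highest in TBI cortex, followed by TBI thalamus, sham cortex and sham thalamus, and each neighbour in that order overlapped the next. Mmp2 was highest in TBI thalamus, followed by TBI cortex, sham thalamus and sham cortex, and these neighbours overlapped too. The order of the sham groups rested on the libraries of high choroid plexus level: the medians were 223 in thalamus and 241 in cortex, and without those libraries 204 and 224, with a log2 fold change of -0.17.

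Several sets of markers of cell types that can make these proteins moved with TBI as well. Over all loci 14.3% were called higher and 14.9% lower in TBI cortex, and 14.5% and 20.9% in TBI thalamus. A single call in a list of 6 or 9 markers is close to those shares. Of 12 markers of microglia and macrophages 11 were higher in TBI cortex and 12 in TBI thalamus, and their summed normalized count was 13140 to 14139 in sham and 19200 to 22957 in TBI cortex, and 14498 to 19199 and 30062 to 39456 in the thalamus. Of 9 astrocyte markers 6 were higher in each region and 2, Slc1a2 and Aldoc, were lower in TBI cortex, with sums of 377832 to 398602 and 414333 to 462826 in sham and TBI cortex, and 285370 to 318777 and 408672 to 470754 in the thalamus. Of 9 markers of fibroblasts and meninges 8 were higher in TBI cortex, with sums of 14486 to 21394 in sham and 22052 to 56321 in TBI. In the thalamus 0 were higher by limma, with sums of 2198 to 11290 in sham and 2841 to 52029 in TBI. Without the 3 thalamus libraries of high choroid plexus level the sums were 2198 to 2426 in sham and 2841 to 3512 in TBI, without overlap. Of 11 neuronal markers 9 were lower in each region, and 1 of 9 endothelial markers was higher in TBI cortex and 4 in TBI thalamus. Of 6 markers of mural cells 2 were higher in TBI cortex and 5 in TBI thalamus, of 6 markers of oligodendrocyte precursors 4 and 1, and of 7 markers of oligodendrocytes 3 and 0 by limma. No marker of these lists was at 0 in every library of a group. The part of these shifts in the results for Mmp2, Mmp9, Mmp12, Mmp14, Mmp17, Timp1, Timp2, Timp3 and Timp4 was not tested.

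The wider protease system was read from 4 lists, whose counts stand beside the shares over all loci, 14.3% higher and 14.9% lower for cortex, 14.5% higher and 20.9% lower for thalamus. Of 16 other matrix metalloproteinases 6 were abundant enough to be tested in the cortex, where 3 were higher and 1 lower, and 5 in the thalamus, where 1 was higher and 2 lower, with median log2 fold changes of 0.72 and 0.29. Mmp19, a secreted family member, rose in both regions. It ranged from 60.4 to 85.9 in sham and 124 to 245 in TBI cortex (log2 fold change 1.16, limma adjusted p = 8.42e-05), and from 64.3 to 88.1 and 201 to 357 in the thalamus (1.85, 4.22e-07). Mmp23 rose in the cortex by 0.78 on the log2 scale (limma adjusted p = 0.00222). Mmp24, a membrane-type enzyme of neurons, fell in the thalamus by 0.34 on the log2 scale (limma adjusted p = 5.77e-05). It was also called lower in TBI cortex.

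Of 17 ADAM and ADAMTS proteases tested, 5 were higher and 3 lower in TBI cortex, and 4 higher and 3 lower in TBI thalamus, where 35.4% of all loci were called. The median log2 fold change was 0.05 in cortex and 0.02 in thalamus. Adamts9, which cuts proteoglycans, rose by 0.95 in cortex and 0.90 in thalamus on the log2 scale (limma adjusted p = 0.000606 and 0.000112). Adamts2, which trims procollagen, rose by 0.64 in cortex (limma adjusted p = 0.00604) and had a log2 fold change of -1.08 in thalamus (7.8e-05), where it ranged from 368 to 514 in sham and 160 to 314 in TBI.

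Of 19 genes of activation and control of the metalloproteinases 10 were higher and 1 lower in TBI cortex, and of 18 tested in the thalamus 5 were higher and 3 lower, beside 29.2% and 35.4% of all loci called in either direction. The median log2 fold change of this list was 0.34 in cortex and 0.17 in thalamus. A2m, the broad plasma protease trap, ranged from 5.66 to 17.0 in sham and 58.3 to 184 in TBI cortex (log2 fold change 3.64, limma adjusted p = 2.02e-06), and from 77.2 to 136 and 431 to 687 in the thalamus (2.36, 1.22e-07). Cd44, a hyaluronan receptor that docks metalloproteinases at the cell surface, rose in the cortex by 2.08 (limma adjusted p = 7.9e-07). It was also called higher in TBI thalamus. Plau, the urokinase that makes plasmin, rose in the thalamus from 15.8 to 31.8 in sham to 71.6 to 169 in TBI (2.22, limma adjusted p = 1.07e-05). Plau was also called higher in TBI cortex.

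Of 13 basement membrane genes tested, substrates of the gelatinases among them, 9 were higher and 0 lower by limma in TBI cortex, and 3 higher and 1 lower in TBI thalamus, again beside 29.2% and 35.4% of all loci. The share called in the thalamus was thus no higher than over all loci. Their median log2 fold change was 0.51 in cortex and 0.31 in thalamus. The laminin chain Lamb2 rose by 0.73 in cortex (limma adjusted p = 0.000304) and perlecan, Hspg2, by 0.72 (0.00963). In the thalamus the laminin chain Lamb1 fell by 0.66 on the log2 scale (limma adjusted p = 0.000434) and nidogen, Nid1, rose by 0.44 (0.0442). Nid1 was also called higher in TBI cortex.

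Both regions came from the same rats, so the level of each gene in the cortex was set beside that in the thalamus over the 6 TBI rats, which gave 10 relations. For Timp1 Pearson's r of the log2 values was 0.87 (exact permutation p = 0.0458, adjusted over the 10 relations 0.115) and Spearman's rho 0.54 (exact permutation p = 0.297, adjusted 0.593). Without rats 45 and 56, the farthest from the cortex median, r was 0.27, so the relation rests on those rats. For Mmp9 r was -0.91 (exact permutation p = 0.00417, adjusted 0.0417) and rho -0.94 (exact permutation p = 0.0167, adjusted 0.167). The thalamus values of Mmp9 were 1 to 4 fragments, and under TMM scaling the adjusted exact permutation p of r was 0.0694. The other 8 relations had adjusted exact permutation p values of r between 0.111 and 0.326.

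The loci whose levels were most like Timp1, the called gene with the largest fold change in both regions, were taken from 15117 named loci by Pearson's r of log2 values over the 24 libraries. They were Cp (ceruloplasmin, r = 0.96), Pdpn (podoplanin, 0.96), Serping1 (the inhibitor of complement C1, 0.96), Cxcl16 (a chemokine, 0.95) and Sp140 (a nuclear body protein, 0.94). The 24 points share the same 4 groups and 12 rats, so these values describe a shared pattern of group levels. The median of Cp was 901 in sham cortex, 2424 in TBI cortex, 509 in sham thalamus and 1914 in TBI thalamus. Serping1 went from 689 to 2655 in cortex and from 342 to 2838 in thalamus by the medians.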

How the data were processed

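Messenger RNA was measured in 24 libraries of 12 rats. The authors deposited 1 table of signal values, in which the fragments counted at a locus were scaled by 1 size factor per library, and a table of gene names and positions. Per the submitters' processing notes the reads were aligned with TopHat2 2.0.11 and Bowtie2 2.2.2 to Rnor_5.0 and assembled and counted with Cufflinks 2.2.1 and Cuffdiff; the methods also name RGSC3.4. Positions are used as listed. The strand setting of the counting is not given in the sources used here. The library kit was stranded and selected polyadenylated RNA.

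Groups came from the labels. At least 99.97% of the values above 0 in each library were whole multiples, within 0.1, of the value of 1 fragment, which gave the depth and a floor of 3 fragments. Floors and intervals cover counting error only. Loci without a name (15693, holding 1.90% to 2.23% of a library's counts) were not tested. Tests used limma 3.58.1 in R 4.3.3 (lmFit and trended eBayes, Benjamini-Hochberg adjustment) after adding 1 and taking log2, in loci whose mean was 10 or more. Fold changes are on this scale, which understates those of low genes. edgeR 4.0.16 (quasi-likelihood test) on the recovered fragments was an alternative and called 4533 loci in cortex and 5481 in thalamus. The steps were tested on simulated counts, drawn independently with the same dispersion at every locus. The simulation had no pairing of rats and no outlying libraries, so it does not cover those features of the data. Other alternatives were the scaling, filter, pseudocount, threshold, summed loci, all libraries in 1 fit, a replicate block and leaving out each rat.

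Both regions of a rat share its number, so they are paired. After subtraction of the group means, the cortex and thalamus library of a rat correlated at 0.00393 to 0.569, over 0.1 in 10 of 12 rats. In 7 of 12 rats the 2 libraries were each other's best match among rats of the same treatment. All 10 members are named, and of each list of other proteases, activation and control, and basement membrane the counts and at most the 2 called genes of largest fold change in each region. The members and lists were chosen with earlier results of these data known. Sequences are from RefSeq. Python 3.11.15, pandas 2.3.3, scipy 1.17.1 and matplotlib 3.10.9 were used.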

Additional observations from a re-analysis of the deposited data

Results flagged for a closer look

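In 40 sets of 6 libraries (10 genes in 4 groups) the gap of the highest or lowest library to its neighbour as a share of the whole range was compared with Dixon's critical value, which chance passes in about 1 set in 20. It was passed 10 times, 7 of them by TBI rat 45. In the thalamus this rat had the highest Mmp2 (1082, next 399), Mmp14 (2979, next 976), Timp1 (645, next 392) and Timp3 (18136, next 10769.9) and the lowest Timp4 (1388, next 1738). In the cortex it had the highest Timp1 (575, next 350.1) and Timp3 (11538.5, next 7867). Rat 45 also had the highest choroid plexus marker level in both regions (264618 and 33173) and the highest level of fibroblast and meningeal markers (52029 and 56321). The part of these in its values was not tested. The other passes were TBI rat 24 for Mmp12 in the cortex (16.6, next 6.49), sham rat 50 for Timp1 in the cortex (197, next 149.8) and sham rat 50 for Mmp12 in the thalamus (1.05, the others at 0), which is a single fragment.

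The TBI effect on Timp1 differed between regions by 1.56 on the log2 scale (thalamus minus cortex, limma adjusted p = 0.00147). The part of reads of Syn1, which shares the Timp1 interval, was not tested.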

How the results depend on the processing

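Over 35 results of single genes and comparisons, 786 values were computed under other settings: 730 kept direction and side of the threshold, 24 no longer passed, 16 newly passed and 16 changed sign, all 16 in differences that passed under neither setting. With 1 rat left out, 5 to 7 of the genes were called in cortex, beside 3671 to 5219 over all loci. In thalamus 3 to 5 were called, beside 4522 to 5442 over all loci. In the difference between regions 1 was called, beside 690 to 1204 over all loci. Between regions in sham rats 7 to 8 were called, Mmp9 counted among them, beside 9029 to 9448 over all loci. At a threshold of 0.01, 2 genes were called in the thalamus (Timp1 and Timp4), beside 3429 of 15564 loci. Without the 3 cortex libraries of high choroid plexus level, 3 were called in cortex (Mmp2, Mmp14 and Timp1), beside 2162 of 15485 loci. The cause of these differences was not tested. No gene passed in the relation between regions within rats under TMM scaling (0) or without the 2 farthest rats (0), against 1 (Mmp9); by unadjusted exact p of r the main count under 0.05 was 4.

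The sign changed for the difference between regions of Mmp16 with edgeR (-0.0158) and of Timp2 without the 6 libraries of high choroid plexus level (0.0897), and for Mmp2 between regions in sham rats without the 4 such libraries (-0.17). With 1 rat left out it changed for Mmp16 (-0.14 to 0.0129 in cortex, -0.13 to 0.00276 in thalamus, -0.13 to 0.0834 in the difference), for the differences of Mmp14 (-0.14 to 0.24) and Timp2 (-0.10 to 0.0415), and for Mmp2 in sham rats (-0.0522 to 0.22).

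With the rat as a replicate block 1 gene was called in the difference between regions (Timp1, 1.56, limma adjusted p = 0.000582), beside 1301 of 15678 loci. Between regions in sham rats 8 were called, Mmp9 counted among them, with Mmp14 as the addition (-0.49), beside 9810 of 15582 loci. The block changed no other call. In the comparisons within a region the groups hold different rats, so no block applies. Over all loci, calls fell from 4531 to 2436 in cortex and from 5516 to 3429 in thalamus at a threshold of 0.01. They fell to 2162 in cortex without the 3 libraries. For the difference between regions they were 1138, and 404 at 0.01, 690 without rat 24, 695 without rat 50 and 422 without the 6 libraries. Low counts limit Mmp12 and thalamic Mmp9.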
